A study of Mus musculus with 8 samples.

Results

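Usp17la, Usp17lb, Usp17lc, Usp17ld and Usp17le are the 5 annotated protein-coding copies of the mouse Usp17l deubiquitinase family, and their N6-methyladenosine (m6A) peaks were described here. A peak was taken as a peak of a member when its exon blocks shared 1 base or more, on the same strand, with an exon of that gene in GENCODE M21 (mm10, GRCm38). By this rule 18 peaks of 31896 belonged to the family. All 18 came from the list of 13001 peaks called after doxycycline (Dox), and 0 came from the list of 18895 peaks called after the solvent DMSO.

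The peaks came from methylated RNA immunoprecipitation sequencing (MeRIP-seq), in which poly(A) RNA is broken into fragments, fragments carrying m6A are pulled down with an antibody (IP), and both these and unselected fragments (input) are sequenced. E14 mouse embryonic stem cells (ESCs) had been given Dox or DMSO for 24 h, and 2 replicates were labelled for each of the 4 groups formed by treatment (DMSO or Dox) and fraction (IP or input). According to the study, the ESC line, and so the DMSO controls too, carried a Dox-inducible Dux transgene and a tdTomato reporter under the Mervl promoter. Dux is a transcription factor that drives ESCs toward a state like the 2-cell embryo (2C-like cells), and the comparison asks how the m6A landscape differs once Dux has been switched on. The libraries were of whole cultures as far as the labels say, so a Dox library may mix 2C-like cells with other ESCs. Because each treatment was given as 1 combined list, no value below has a replicate error and no test between treatments was possible. RNA levels and read depth were not analysed here, so that more RNA of a gene and more methylation per RNA cannot be told apart, nor can fewer expressing cells and less RNA per cell.

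Ubiquitin-specific proteases remove ubiquitin, a small protein tag that marks other proteins for degradation or signalling. The Usp17l enzymes, also known as DUB enzymes, are encoded by short genes that resemble each other closely and lie in clusters, and in mouse they are counted among the transcripts of the 2-cell embryo and of 2C-like cells. m6A is placed on mRNA by a methyltransferase complex, mostly within the sequence context DRACH (where D stands for A, G or T, R for A or G, and H for A, C or T), often in long exons and near stop codons, and reader proteins such as the YTHDF family bind it.

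The sequences that carry the peaks are shown first. Peak 1 of Usp17ld was the best-scoring peak of the family within coding sequence, and all 250 bases of it lay in the coding sequence of the last exon (GRCm38, chr7:103251137-103251386, minus strand). It is given 5′ to 3′ with the DRACH matches in capitals.
Usp17ld peak 1: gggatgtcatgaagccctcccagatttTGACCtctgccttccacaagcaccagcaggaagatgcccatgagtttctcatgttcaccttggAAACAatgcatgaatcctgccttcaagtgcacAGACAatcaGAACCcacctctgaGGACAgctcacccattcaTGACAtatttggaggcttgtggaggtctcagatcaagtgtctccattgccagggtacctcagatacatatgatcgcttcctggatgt

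This stretch held 6 DRACH matches, 1 of which contained GGAC, a common form of the m6A motif in mammalian mRNA. In the alignment of the coding sequences this GGAC (its A being base 485 of the Usp17la coding sequence, counted from 1 at the A of the start codon) was kept in 4 of 5 members. The 41 bases around it are given below with GGAC in capitals, because Usp17le lacked the motif and still carried a peak there.
Usp17la, chr7:104860654-104860694, plus strand: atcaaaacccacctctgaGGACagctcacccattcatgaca
Usp17lb, chr7:104841214-104841254, minus strand: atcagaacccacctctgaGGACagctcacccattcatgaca
Usp17lc, chr7:103417964-103418004, plus strand: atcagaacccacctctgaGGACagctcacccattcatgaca
Usp17ld, chr7:103251219-103251259, minus strand: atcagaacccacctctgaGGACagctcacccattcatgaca
Usp17le, chr7:104769327-104769367, minus strand: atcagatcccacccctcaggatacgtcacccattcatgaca

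The aligned base lay in a Dox peak in all 5 members. At base 918 of the Usp17la coding sequence all 5 members had GGAC, and only Usp17lc and Usp17le had a Dox peak over it. In the other copies the base lay close to a peak edge. Peak 4 of Usp17la ended at 104861086, the base before the stretch printed below. In Usp17lb the base lay in a gap of 25 nt between peaks 2 and 3, and 25 nt is 1 step of the caller. Peak 2 of Usp17ld reached into the printed stretch and ended at 103250812. Whether the copies differ here beyond the placing of peak edges was not tested. The same 41 bases of each copy are given with GGAC in capitals.
Usp17la, chr7:104861087-104861127, plus strand: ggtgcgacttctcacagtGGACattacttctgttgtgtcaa
Usp17lb, chr7:104840781-104840821, minus strand: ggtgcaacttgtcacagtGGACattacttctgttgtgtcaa
Usp17lc, chr7:103418397-103418437, plus strand: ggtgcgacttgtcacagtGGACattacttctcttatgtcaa
Usp17ld, chr7:103250786-103250826, minus strand: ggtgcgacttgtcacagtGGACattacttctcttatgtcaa
Usp17le, chr7:104768894-104768934, minus strand: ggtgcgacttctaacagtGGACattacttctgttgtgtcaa

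Usp17lc and Usp17ld were identical over these 41 bases. The base lay in a peak in the first and just past the end of peak 2 in the second. Peaks are called in steps of 25 nt, and reads of these copies may be shared. A difference in methylation between them can thus not be read from this site. A shorter case was peak 1 of Usp17la, of 25 nt, whose sequence was found unchanged in all 5 copies and in the processed pseudogene Gm5053. It is given with its DRACH match in capitals.
Usp17la peak 1, chr7:104860387-104860411, plus strand: gcagtgctTGACAcacacaccacct

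Of these 25 bases, 25 lay in a peak in Usp17la, 15 in Usp17lb, 25 in Usp17le, and 0 in Usp17lc and Usp17ld. The same letters were therefore inside a called peak in some copies and outside in others.

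The 5 genes lay within 1612931 bases of chromosome 7, and each of them carried Dox peaks and no DMSO peak. Usp17la carried 5 Dox peaks, Usp17lb 4, Usp17lc 2, Usp17ld 3 and Usp17le 4. As background, 2.56% of the 6408 genes with a peak in either list had Dox peaks and 0 DMSO peaks, against 5 of 5 members. Of all Dox peaks, 7.31% had no base in a DMSO peak on the same strand, against 18 of 18 peaks of the family. The 18 of 18 is no second result, since these peaks lay wholly in exons of genes without a DMSO peak. Over all 22028 protein-coding genes, 27.5% carried a DMSO peak and 22.2% a Dox peak. The absence of a DMSO peak is the absence of a call at the authors' threshold, and not a measured level of 0. The lowest score in either list was 10. According to the study, PCR after m6A pull-down showed Usp17la mRNA to be methylated with and without Dox.

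The peaks covered most of the exonic sequence in every member except Usp17la. In Usp17la, 1150 of 2656 exonic bases (43.3%) lay in Dox peaks. The share was 72.1% in Usp17lb (1125 of 1561), 63.2% in Usp17lc (1550 of 2453), 69.2% in Usp17ld (1375 of 1987) and 74.2% in Usp17le (1475 of 1987). Over the family it was 62.7%, against a median of 6.73% and a 95th percentile of 36.8% over the 5008 genes with a Dox peak. Each member was thus above the 95th percentile. The members are short genes, of 1561 to 2656 exonic bases, and a peak of a given length takes a larger share of a short gene. Usp17la, the lowest, has the longest 3′ untranslated region (UTR) of the family, and 241 of its 897 bases there were in a peak. In coding sequence alone the shares were 57.5% in Usp17la, 76.2% in Usp17lb, 75.4% in Usp17lc, 68.7% in Usp17ld and 75.5% in Usp17le.

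**Figure D1:**
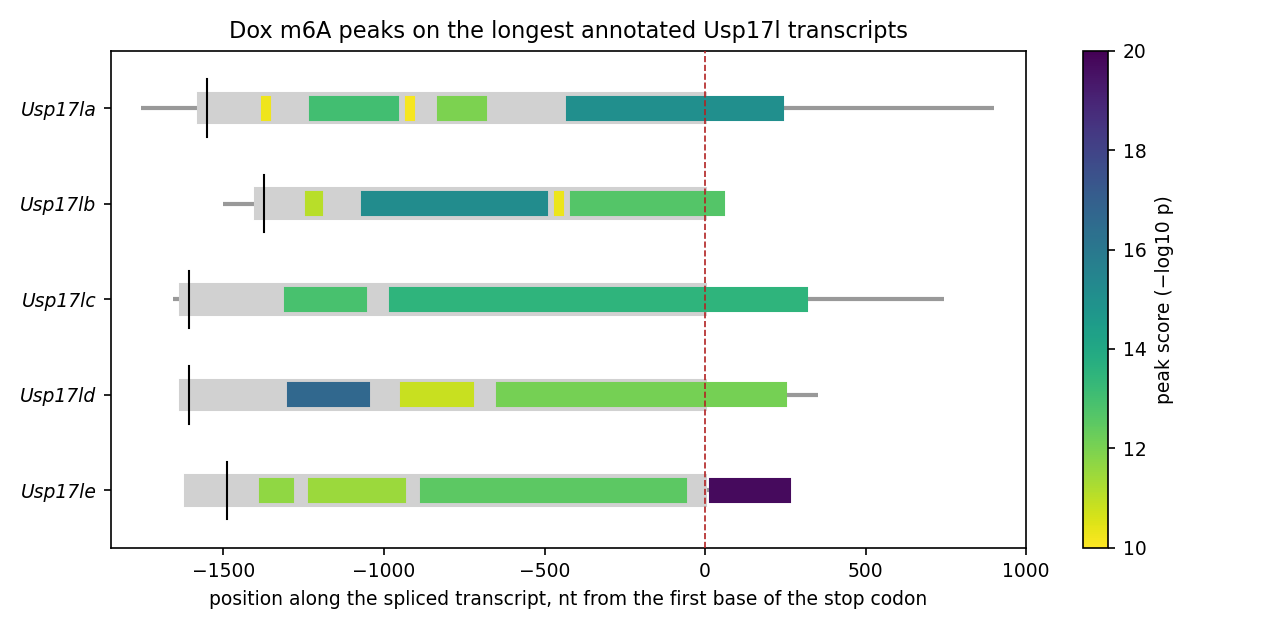
Position of the 18 Dox peaks along the longest annotated transcript of each member, in nt from the first base of the stop codon (dashed line). Grey boxes are coding sequence, thin lines untranslated sequence, black ticks the last exon junction, and the colour of a peak is its score; every peak lies to the right of the last junction, and in Usp17le alone the stop codon falls between 2 peaks.

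All 18 peaks were unspliced and lay wholly in the last exon, which in this family holds nearly all of the coding sequence. The last exon was 2450 nt long in Usp17la, 1431 nt in Usp17lb, 2353 nt in Usp17lc, 1959 nt in Usp17ld and 1755 nt in Usp17le. Of all Dox peaks, 21.8% spanned more than 1 exon block. The stretch just after the last exon junction was free of peaks in every member. The first peak began 169 nt after the junction in Usp17la, 131 nt in Usp17lb, 300 nt in Usp17lc, 309 nt in Usp17ld and 105 nt in Usp17le. No base of a 5′UTR lay in a peak, although Usp17ld and Usp17le have no annotated 5′UTR in the transcripts used.

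The peaks of one gene followed each other closely. Gaps between neighbouring peaks ran from 25 nt to 250 nt, and the widest was in Usp17la, between its peaks 4 and 5. The length of a peak was a multiple of 25 nt in all 18 cases, as in 99.7% of all Dox peaks, so a gap of 25 nt is 1 step of the caller. Of the 13 gaps, those next to the 25 nt peaks 3 of Usp17la and Usp17lb were 25 to 75 nt wide.

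In Usp17la, a gene on the plus strand with 1 annotated transcript, the 5 peaks had scores of 10.3, 13.0, 10.1, 11.96 and 15.0 from 5′ to 3′. The score is the authors' −log10 p-value of IP over input. Peaks 1 and 3 were 25 nt long, peak 2 was 275 nt, peak 4 was 150 nt, and peak 5 was 675 nt. Peak 5 (chr7:104861337-104862011) ran from position -431 to position 243 relative to the first base of the stop codon, and was the best of the gene, above 91.5% of all Dox peaks. The pair of 25 nt peaks had the lowest scores of the gene.

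In Usp17lb, on the minus strand, the scores from 5′ to 3′ were 11.1, 15.2, 10.3 and 12.7. The best peak, of 575 nt, lay wholly in coding sequence (chr7:104840807-104841381). Its last peak, of 475 nt, held the stop codon and ended at the annotated end of the transcript, 55 nt after that codon. Usp17lb thus differed from Usp17la in that its best peak lay upstream of the stop codon.

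In Usp17lc, on the plus strand, there were only 2 peaks, and both were above the upper quartile of all Dox scores. Peak 1, of 250 nt, had a score of 12.9. Peak 2, of 1300 nt, had a score of 13.5 and was the longest of the family, at the 99.6th percentile of length among all Dox peaks. It ran from position -982 to position 317 relative to the first base of the stop codon (chr7:103418153-103419452).

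In Usp17ld, on the minus strand, the scores were 16.7, 10.8 and 12.1. The first peak, printed above, scored above 94.8% of all Dox peaks, although its 250 bases were found unchanged in Usp17lc. The peak called there in Usp17lc began 328 nt after the first base of the start codon, against 337 nt in Usp17ld, and had a score of 12.9. The last peak of Usp17ld, of 900 nt, held the stop codon and had a score of 12.1.

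In Usp17le, on the minus strand, the scores were 11.7, 11.5, 12.5 and 19.7. Its last peak, of 250 nt, had the highest score of the family, above 97.1% of all Dox peaks. In Usp17le-202, the transcript used here, it lay wholly in the 3′UTR, starting 15 nt past the first base of the stop codon. Its middle base lay off Usp17le-201, the transcript with the longest coding sequence. The coding peak before the last one, of 825 nt, ended at position -61, so that a gap of 75 nt spanned the stop codon. On the transcripts used, Usp17le was the one member whose stop codon was not in a peak. The stop codon lay wholly in a peak in 4 of 5 members, and in 1852 of 4875 protein-coding genes with a Dox peak (38.0%). The members were counted on the transcript with most exonic bases, all genes on that with the longest coding sequence. These transcripts differ for Usp17lb and Usp17le.

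**Figure D2:**
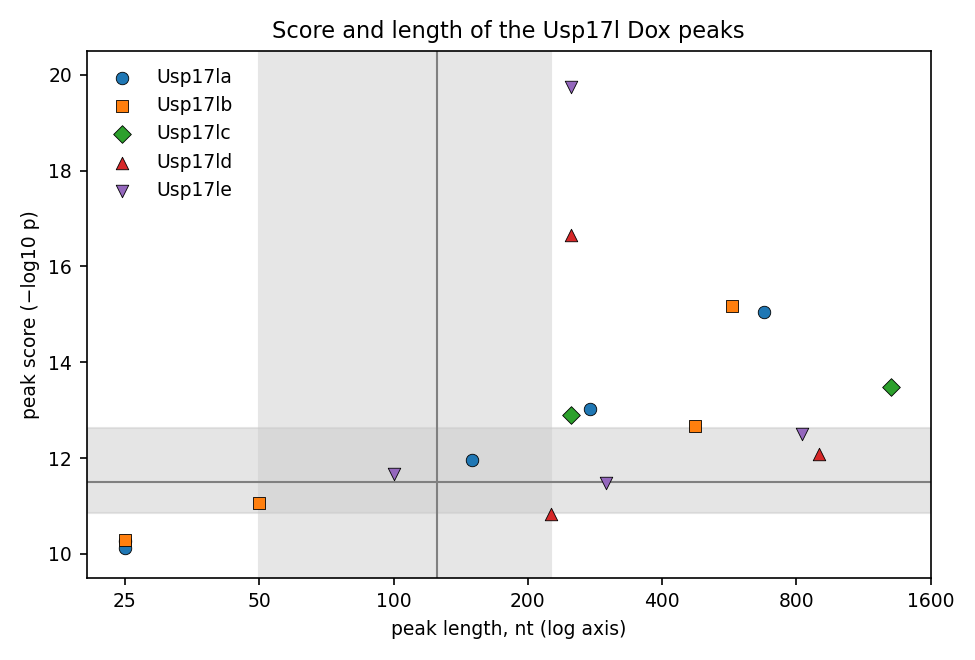
Score against length (log axis) of the 18 Dox peaks of the family, 1 symbol per gene. Grey lines and bands are the medians and quartiles of all 13001 Dox peaks (125 nt, 50 to 225 nt; score 11.5, 10.9 to 12.6); the 25 nt peaks have the lowest scores, and the peaks of Usp17ld and Usp17le with the highest scores are 250 nt long.

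Over the family the median peak length was 250 nt, against 125 nt over all Dox peaks. The quartiles were 112.5 and 550.0 nt in the family, and 50 and 225 nt over all. Of the 18 peaks, 4 were at least 600 nt long (22.2%, 95% exact binomial interval 6.41 to 47.6), against 4.42% of all Dox peaks. The interval covers counting error only, and peaks of copies that share sequence are not independent. The median score was 12.3 in the family and 11.5 over all Dox peaks, in a list where no score is below 10. By rank, the median percentile of the family's scores among all Dox peaks was 69.4. Of the 18 peaks, 4 had a score of at least 15 (22.2%), 1 in each member except Usp17lc, against 8.78% of all Dox peaks. At a score of at least 20 there were 0, against 2.71% of all Dox peaks.

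The copies were alike in sequence, and this bears on which copy a read came from. Over aligned coding bases Usp17lc and Usp17ld were 98.4% identical. Usp17la was 94.7% identical to Usp17le, 94.1% to Usp17ld and 93.9% to Usp17lc. Usp17lb, the most distant, ran from 90.7% to 91.2% against the other 4. Every coding sequence began with a start codon, ended with a stop codon and stayed in frame. The annotated start of Usp17le lay 102 bases upstream of the start codon it shares with the other copies.

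Of the 18 peaks, 6 (33.3%) matched another locus with 98% identity or more across 90% or more of their length. These were the first peaks of all 5 members and peak 2 of Usp17ld. With 95% identity or more across 50% or more of the length, 12 of 18 did. Every one of these loci was another Usp17l gene, the pseudogene Usp17le-ps or the pseudogene Gm5053. Neither pseudogene carried a peak in either list. The 6 peaks without such a locus at the wider setting lay in Usp17la, Usp17lb and Usp17le, and they alone covered 24.4% of the family's exonic bases. The 25 nt peaks 3 of Usp17la and Usp17lb were among them. Whether the search could return an imperfect match for so short a sequence was not tested.

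At the scale of a sequenced fragment the copies were more easily told apart. All sequences here are those of the mouse reference genome. Whether the E14 cells carry the same bases and copies was not tested. Of all windows of 50 nt within exons, the share found once in the genome was 75.9% in Usp17la, 77.5% in Usp17lb, 51.8% in Usp17lc, 49.6% in Usp17ld and 66.2% in Usp17le. Of windows of 150 nt it was 98.3% in Usp17la, 97.5% in Usp17lb and 99.1% in Usp17le, but 71.2% in Usp17lc and 64.9% in Usp17ld. Windows of 150 nt centred in Dox peaks were found once in 78.4% of cases in Usp17lc and in 78.1% in Usp17ld. Peaks of Usp17lc and Usp17ld may thus share reads, and how the aligner placed such reads was not tested.

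Along the aligned coding sequences the peaks fell at partly matching positions. Of 1404 columns with a base in every member, 644 (45.9%) lay in a Dox peak of all 5 members and 180 (12.8%) in a peak of none. Counting runs as broken where any copy has a gap, the longest run of columns in a peak of all 5 was 231 columns, from base 348 to base 578 of the Usp17la coding sequence. Runs of 147 columns (bases 1148 to 1294) and 116 columns (bases 1295 to 1410) adjoin in Usp17la and were parted only by bases that Usp17lc and Usp17ld have in addition, so that together they are longer. The longest run in a peak of none was 104 columns, from base 30 to base 133, and another of 50 columns lay from base 234 to base 283. The start of the coding sequence was thus the stretch that all copies lacked, and the stretches at bases 348 and 1148 were among those that all had.

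**Figure D3:**
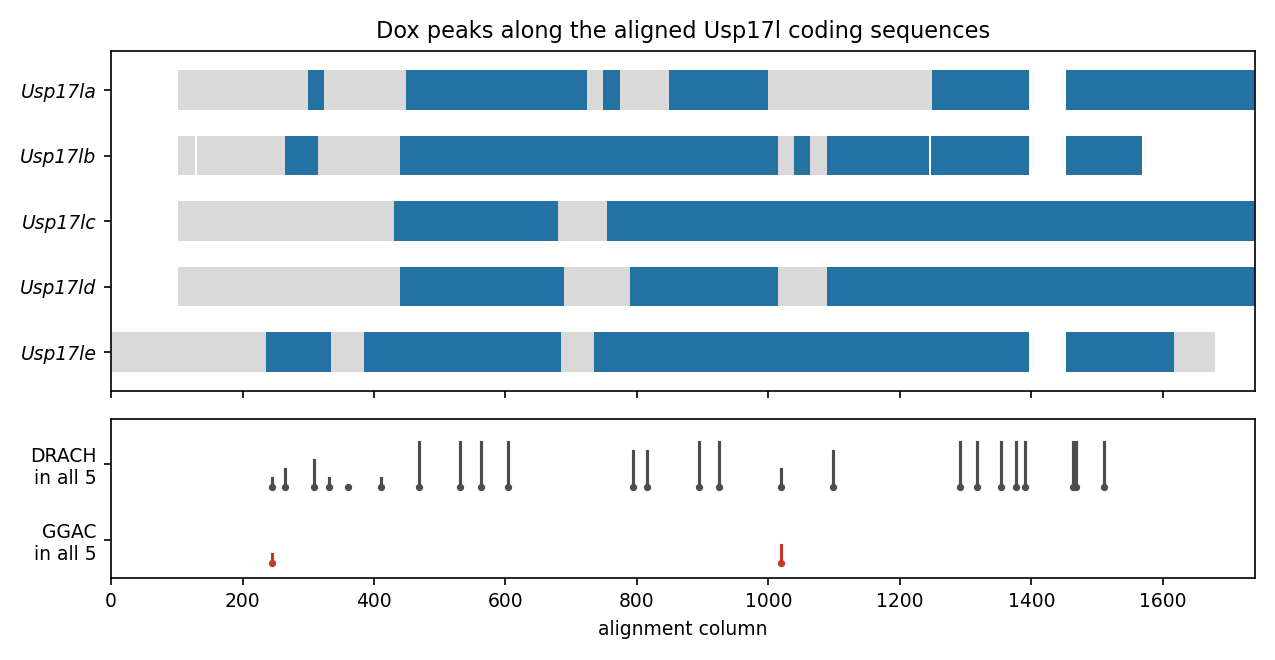
Upper panel, alignment columns of the 5 coding sequences that lie in a Dox peak (blue), lie outside (grey) or are a gap (white). Lower panel, columns where all 5 members have DRACH or GGAC, the height of each line being the number of members (0 to 5) with that site in a Dox peak; 14 of the 24 DRACH columns reach 5 and neither GGAC column does.

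Pairs differed in how far their peaks matched. Usp17lc and Usp17ld, the closest pair in sequence, had the same state (in a peak or not) in 92.2% of the columns they share. For Usp17la and Usp17le it was 61.9%, the lowest of the 10 pairs, although no pair other than Usp17lc and Usp17ld was more alike in sequence. In 478 columns Usp17le was in a peak and Usp17la was not, and in 102 columns the reverse held. The 478 columns included the gap of 250 nt between peaks 4 and 5 of Usp17la.

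DRACH was found in 16 of 18 peaks (88.9%, 65.3 to 98.6) and in 85.4% of all Dox peaks. GGAC was found in 13 of 18 (72.2%, 46.5 to 90.3) and in 55.9% of all Dox peaks. Both motifs were searched on the strand of the peak. The 2 peaks with no DRACH were 25 nt long. Longer peaks hold more motifs, so the density was also taken. GGAC occurred 0.479 times per 100 nt of the family's peaks, below the 0.654 of all Dox peaks. DRACH occurred 2.98 times per 100 nt, against 2.41 in all Dox peaks. The interval of the family's share of peaks with GGAC included that of all Dox peaks. The reverse complement GTCC, searched in the same way, was also in more of the family's peaks, 10 of 18 (55.6%, 30.8 to 78.5) against 37.0% of all Dox peaks.

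Within the member transcripts, DRACH and GGAC were denser inside the peaks than outside. Sites that the copies share were counted once per copy. GTCC was not counted in this way, and the stretches inside and outside were not matched by region or base composition. DRACH occurred 3.01 times per 100 nt inside (201 sites whose A lay in a peak) and 1.63 times outside (62 sites). GGAC occurred 0.479 times per 100 nt inside (32 sites) and 0.210 times outside (8 sites). In coding sequence alone 28 of 41 DRACH sites lay in a peak in Usp17la, 26 of 31 in Usp17lb, 40 of 48 in Usp17lc, 38 of 48 in Usp17ld and 34 of 39 in Usp17le. These shares were all higher than the share of coding bases in peaks of the same gene.

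The alignment showed which sites the copies share. DRACH was found in all 5 members at 24 columns, of which 14 lay in a Dox peak in all 5 members, 3 in 4 members and 1, at base 259, in none. GGAC was found in all 5 members at 2 columns. One was the site at base 918 shown above, and the other, at base 144, lay in a peak in Usp17le alone. GGAC columns with 4 members, at bases 485 and 858, lay in a peak in every copy that had the motif and also in the copy that lacked it, which was Usp17le at the first and Usp17lb at the second. A match is a description of the sequence, and no single methylated base can be read from peaks of this width.

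The family was next set beside the genes it is usually grouped with. Of 19 other 2C genes, among them the Zscan4 copies and Duxf3, 11 carried a Dox peak and 4 a DMSO peak, and 7 had Dox peaks only. The median share of exonic bases in Dox peaks over those 11 was 37.7%, with a range from 1.10% to 83.2%. Zscan4b, Zscan4c, Zscan4d and Zscan4f, telomere-associated zinc-finger genes of the 2-cell stage, carried 1 to 4 DMSO peaks each, whereas the Usp17l genes carried none. The best Dox score reached 120 in Zscan4b and 113 in Zscan4f, far above the 19.7 of Usp17le. The share of exonic bases in Dox peaks was 83.2% in Zscan4b, 71.4% in Zscan4c, 73.6% in Zscan4d and 77.8% in Zscan4f, in or above the range of the Usp17l genes, so that broad coverage was shared with the Zscan4 copies. Among the 2C genes with Dox peaks only, Zscan4a had a share of 71.3%, close to those of the Usp17l genes, and Tmem92 had 37.7%.

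The other ubiquitin-specific proteases carried Dox peaks over a smaller share of their exons, but not always over fewer bases. Of 50 protein-coding genes named Usp with a number, 35 carried a DMSO peak and 29 a Dox peak. In 28 there were peaks in both lists, in 7 in the DMSO list only, and in 1, Usp46, in the Dox list only, as a single peak of 50 nt with a score of 10.2. The median share of exonic bases in Dox peaks over the 29 was 3.07%, and the highest was 27.5%, below the 43.3% of Usp17la. In bases the ranges overlapped, since many of these genes are longer. Usp10 had 1900 of 9559 exonic bases in Dox peaks and Usp36 had 1400, against 1125 to 1550 in the members.

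**Figure D4:**
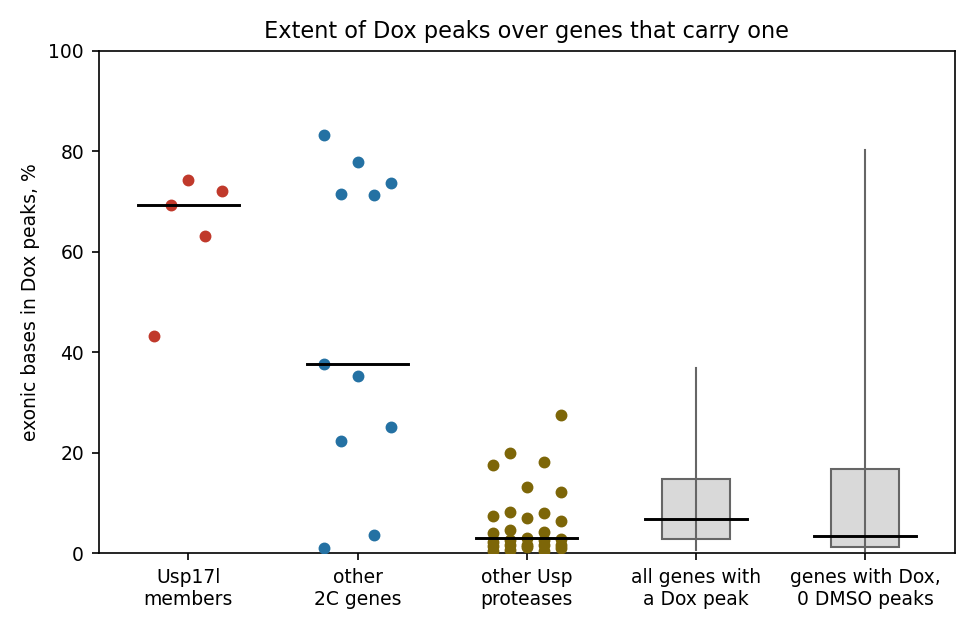
Percent of exonic bases in Dox peaks for genes that carry at least 1 Dox peak, 1 point per gene with the median as a line: 5 Usp17l members, 11 other 2C genes and 29 other Usp proteases. Boxes are quartiles, with the median as a line and whiskers from the 5th to the 95th percentile, over all 5008 genes with a Dox peak and over the 164 of them with 0 DMSO peaks; all members lie above 43%, and the other Usp proteases below 28%.

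The protein-coding genes most like the members were those with no DMSO peak and the highest share of exonic bases in Dox peaks. Of 142 other protein-coding genes with a Dox peak, no DMSO peak and at least 500 exonic bases, the highest were Gm4303 and Gm4312 (100% each). Gm4301 came next (91.8%). These were followed by Gm8994 (58.8%) and Gm21818 (58.7%). When the 5 members were ranked among them, Usp17le stood at 4, Usp17lb at 5, Usp17ld at 6, Usp17lc at 7 and Usp17la at 12 of 147.

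The surroundings of the genes were empty of peaks. Within 200 kb of a member lay 78 other annotated genes, of which 62 were olfactory receptor genes or pseudogenes, and 0 of the 78 had a peak in either list. Between the first and the last member the only other peaks lay in Trim6, with 6 DMSO and 5 Dox peaks. No peak of either list lay on the opposite strand of a member gene.

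As a check of the labelled cells, 10 of 10 markers of pluripotent stem cells carried peaks under both treatments. None of 5 fibroblast, 4 endoderm and 3 trophoblast markers had a peak in either list, and 1 of 3 neuroectoderm markers had 1 in each. Transcripts of pluripotency genes thus still carried peaks after Dox. What share of the cells expressed Usp17l genes was not measured.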

How the data were processed

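MeRIP-seq libraries of mouse ESCs (E14, 8 libraries, 4 groups of 2 replicates) were processed by the authors with fastp 0.19.4 and HISAT2 2.2.1 on mm10, per the submitters' processing notes, with exomePeak2 as the caller of IP peaks against input. Its version, its settings and how it combined replicates are not given in the sources used here. The deposited lists hold 1 set of peaks per treatment and a score per peak, taken here to be a −log10 p-value. Whether that value was adjusted is not given in the sources used here. Since no per-library counts were used here, the depth is unknown.

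Exon blocks were compared with GENCODE M21. Inner block edges lay at an annotated exon edge in 99.9% of cases in both lists, which was the check of the build. The 5 members and all gene lists were chosen with earlier results of these data known. Positions and motifs used the transcript with most exonic bases of each member. Exceptions took the transcript with the longest coding sequence. These were the share of peaks in coding sequence in the closing section, and the stop codons of all protein-coding genes. Genes named were all members, their pseudogenes, and the lists given with each result. Intervals are exact binomial (95%) and cover counting error only. Coding sequences were aligned with MAFFT 7.526, other loci were searched with blastn 2.17.0 (E value at most 0.001) against GRCm38 without patches or alternate loci, and windows found once were counted on both strands. Python 3.11.15, numpy 2.4.6, scipy 1.17.1, pysam 0.24.0 and matplotlib 3.10.9 were used. The overlap and position steps were tested on simulated peaks, of which 1000 of 1000 were recovered. Alternatives covered the score, list size, overlap, strand, introns, near-identical loci, transcript and motif.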

Additional observations from a re-analysis of the deposited data

How the results depend on the processing

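No paired analysis was possible because replicates were merged into 1 list per treatment, and no replicate could be left out for the same reason. Of 47 alternatives over 11 results, 34 left the value within its counting interval or within 1.5 times, and 13 moved it. The 34 include settings that could not have changed the value. With strand ignored or introns included, the settings that could have added a DMSO peak, the number of members with one was 0. With strand ignored, all 18 peaks were still in the Dox list only, which follows from that 0. The other settings for these results can only remove DMSO peaks or overlaps and say nothing about stability. At a score of at least 15, 4 peaks over 4 members were left, with 16.4% of exonic bases, and GGAC and DRACH were in 100% of these 4. At a score of at least 20 there were 0 members, 0 peaks and 0% of exonic bases. Without peaks that had another locus at 98% identity over 90% of the peak, 12 peaks were left, the covered share was 54.3% and the median length 387.5 nt. With 95% over 50%, the share of peaks with such a locus was 66.7% in place of 33.3%, and without them 6 peaks over 3 members and 24.4% of exonic bases were left. The members left out at that setting were Usp17lc and Usp17ld. The middle base of a peak lay in coding sequence in 17 of 17 peaks placed on the longest coding sequence, and in 17 of 18 (94.4%) on the longest transcript. The peak that could not be placed on the longest coding sequence was the last peak of Usp17le. Limits are set by the authors' threshold and by unknown depth.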
